A study of Homo sapiens with 3 samples.

Results

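HCT116 colorectal cancer cells that had been irradiated with 8 Gy and carried little of their hashtag were compared with cells of the line regrown after irradiation. The irradiated pool of the library Mix2 was marked with the antibody hashtag tag8, the repopulated cells [R] with tag7 and the non-irradiated control cells [NC] with tag6. Among the 11652 cells of Mix2 with at least 200 genes and under 10% mitochondrial UMIs, 6322 (54.3%) had 500 to 3159 tag8 counts that made up at least 80% of their tag counts, and these are the weak tag8 irradiated cells described here. They belong to the irradiated pool by their tag alone, and how their low tag8 counts arose was not tested. The repopulated cells were the 633 (5.43%) with at least 104 tag7 counts under the same 80% limit, so the comparison took in 6955 of 30907 cell barcodes in both libraries of the series. The question put to the data was what parts the cycling irradiated cells from the regrown line.

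The study looked at radiation-tolerant persister (RTP) cells, the giant cells that outlive a single dose and bud off small progeny. All cells came from 1 line, which the labels describe as carrying p53. The irradiated pool mixed giant cells isolated on day 5 or day 8 and cultured until day 10 or day 11, so it holds giant cells and whatever they had budded off, and its parts cannot be resolved. The repopulated cells were regrown after 8 Gy, for about a month by the study's methods, and NC cells received no dose (0 Gy). About 10000 irradiated, 1000 NC and 1000 repopulated cells were loaded. Each population was a single pool in a single library, and cells are not replicates, so the differences below were not tested and lack a check by replicates. Intervals are exact, at 95%, and hold for counting error alone.

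The weak tag8 cells carried a median of 1323 tag8 counts. Repopulated and NC cells carried 121 each, and droplets without cells 116. The tag7 median was 1345 in repopulated cells and 4 in weak tag8 cells. Depth was alike, with a median of 7216 UMIs and 2410 genes in a weak tag8 cell and 6933 UMIs and 2362 genes in a repopulated cell, over totals of 46991674 and 4731705 UMIs. The mitochondrial share was 6.49% in weak tag8 cells and 7.16% in repopulated cells, and its part in the differences was not tested. Values are also given for 809 NC cells and for the 2216 irradiated cells with tag8 above the window (strong tag8 cells, median 11861.5 UMIs). Mix1 and Mix2 shared 59 barcodes, of which 46 were kept in both. No marker of fibroblasts, immune, endothelial or red blood cells reached 10 UMIs per 1e6, while the epithelial genes EPCAM and KRT8 stood at 339 and 1119 UMIs per 1e6 in weak tag8 cells and at 400.1 and 1182 in repopulated cells.

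Type I interferon, or the detection of misplaced nucleic acid inside a cell, leads to the binding of interferon-stimulated response elements by activated transcription factors and raises a set of antiviral genes that includes ISG15 and IFI6. Metallothioneins are small cysteine-rich proteins that bind zinc and copper, and their genes are raised by the metal sensor MTF1 through metal response elements. Immediate early genes such as FOS are transcribed within minutes of a growth factor or stress signal and their transcripts are short-lived.

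Stretches of the promoters of genes from the first 2 of these groups are shown because several of the larger differences in level between the populations, among them the largest increase, fell in them. The sequences are from RefSeq (GRCh38.p14), are written 5′ to 3′ on the strand of the gene, and have matches to a searched motif in capitals. The motif for the interferon genes was GAAA, any 2 bases and GAAA again, the core of the interferon-stimulated response element, searched on both strands. IFI6 (ENSG00000126709, chr1:27672263-27672362, minus strand), ISG15 (ENSG00000187608, chr1:1013347-1013416, plus strand) and IFI27 (ENSG00000165949, chr14:94110586-94110665, plus strand) were higher in weak tag8 cells, whereas BST2 (ENSG00000130303, chr19:17405721-17405790, minus strand) was not.
IFI6: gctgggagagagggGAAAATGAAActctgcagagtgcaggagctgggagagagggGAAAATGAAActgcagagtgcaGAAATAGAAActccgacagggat
ISG15: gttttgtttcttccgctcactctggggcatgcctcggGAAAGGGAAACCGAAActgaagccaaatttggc
IFI27: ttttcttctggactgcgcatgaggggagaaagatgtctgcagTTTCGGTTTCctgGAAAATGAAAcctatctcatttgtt
BST2: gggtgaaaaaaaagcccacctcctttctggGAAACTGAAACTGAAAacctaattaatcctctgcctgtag

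The IFI6 stretch holds 3 matches, while those of ISG15, IFI27 and BST2 hold 2 each, which overlap in ISG15 and BST2. Over 35116 promoters of the same length (250 bases before to 50 after the start), 3.57% held at least 1 match. Among the 11 named genes of the interferon and antigen presentation lists that were in the promoter table, 6 held one (IFI6, ISG15, IFI27, IFIH1, BST2 and TAPBP) and SP110, TRIM25, IRF1, HLA-B and HLA-C did not. The motif was thus present both in genes that differed between the populations and in genes, such as BST2 and TAPBP, that did not.

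For the metallothioneins the motif was TGCNCNC, the core of the metal response element, on both strands. MT2A (ENSG00000125148, chr16:56608404-56608543, plus strand) and MT1X (ENSG00000187193, chr16:56682300-56682439, plus strand) lie in the metallothionein cluster of chromosome 16.
MT2A: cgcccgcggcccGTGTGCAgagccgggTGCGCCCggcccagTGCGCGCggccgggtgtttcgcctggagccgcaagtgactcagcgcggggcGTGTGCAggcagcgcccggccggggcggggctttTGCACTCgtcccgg
MT1X: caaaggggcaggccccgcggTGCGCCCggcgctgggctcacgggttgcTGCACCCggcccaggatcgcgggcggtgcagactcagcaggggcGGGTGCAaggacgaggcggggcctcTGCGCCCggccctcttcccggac

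The stretch of MT2A holds 5 of the 8 matches in its promoter, and that of MT1X all 4. A single match is common, since 55.9% of all promoters held one, but 4 or more were found in 2.94%. MT1E, the other metallothionein with a large difference, was not in the promoter table.

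Of 33538 genes, 7471 reached 10 UMIs per 1e6 (CPM) in at least 1 of both populations and were counted as measured. A gene near that level could thus be measured through only the population where it was higher. The populations were alike over most of the measured genes. The ratio of weak tag8 over repopulated cells was within 1.5-fold for 98.8% of the measured genes, with a median log2 ratio of 0.01. A gene was called where the ratio was at least 1.5-fold, the limit the study used for its clusters, and its interval excluded 1. By this rule 56 genes (0.750%) were higher in weak tag8 cells and 36 (0.482%) lower, and these percentages are the background for the counts of each gene list below. At 2-fold there were 7 higher genes and 2 lower ones, and 3 of the 7 were metallothioneins (MT1X, MT1E and MT2A).

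**Figure D1:**
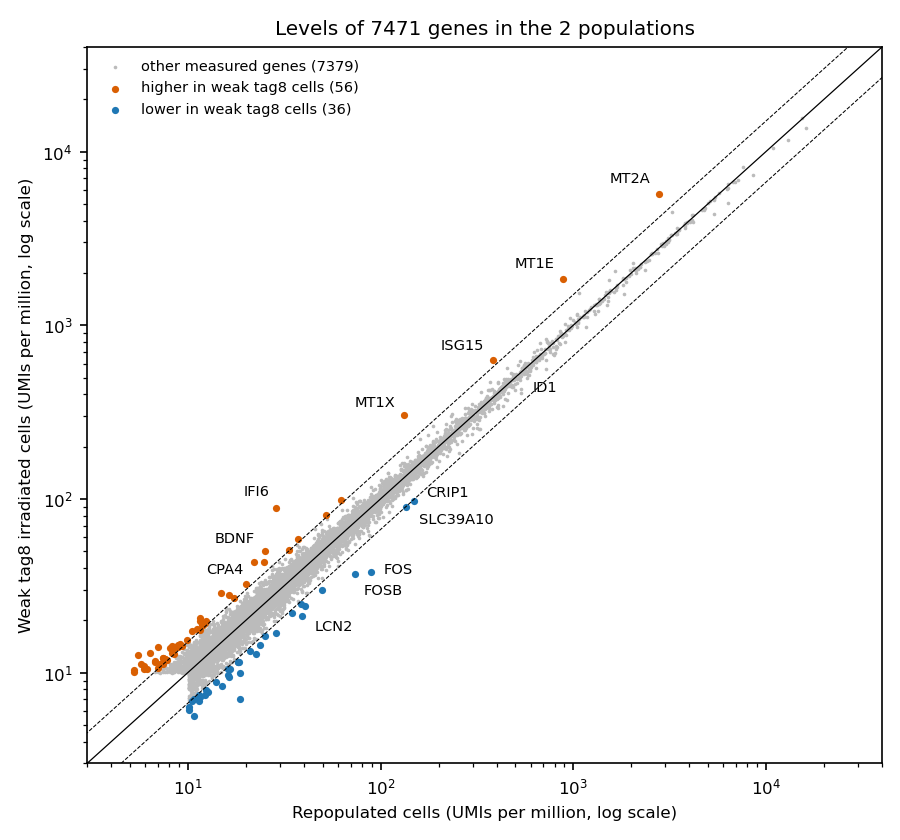
Level of each of 7471 measured genes in repopulated cells (x axis) and in weak tag8 irradiated cells (y axis), in UMIs per 1e6 on log scales, with the line of equal levels and dashed lines at 1.5-fold. The 56 genes called higher (orange) and 36 called lower (blue) lie outside a narrow diagonal, with MT2A, MT1E and MT1X well above it at high levels and FOS and FOSB below it.

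Several interferon-stimulated genes were higher in weak tag8 cells than in repopulated cells. IFI6, a mitochondrial protein that restrains cell death, stood at 88.4 CPM in weak tag8 cells and at 28.5 CPM in repopulated cells, beside 21.0 CPM in NC and 122 CPM in strong tag8 cells. The ratio was 3.1 (2.61 to 3.70), the largest among genes at 50 CPM or more. ISG15, a ubiquitin-like protein that is coupled to other proteins during the antiviral response, stood at 631 CPM against 382 CPM, with 313 CPM in NC and 1072 CPM in strong tag8 cells, a ratio of 1.65 (1.57 to 1.73). For both genes the order was NC, repopulated, weak tag8 and strong tag8, and no intervals of the 4 populations overlapped for ISG15, while those of NC and repopulated cells overlapped for IFI6.

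Of the 17 measured members of a list of 40 interferon-stimulated genes, 6 were called higher, 0 were called lower, and the median log2 ratio was 0.32 against 0.01 over all genes. IFI27, a mitochondrial interferon-induced protein, was at 12.9 CPM in weak tag8 cells, 6.34 CPM in repopulated cells, 3.77 CPM in NC and 27.6 CPM in strong tag8 cells, a ratio of 2.03 (1.41 to 3.04). SP110, a nuclear body protein, was at 19.7 and 11.6 CPM in weak tag8 and repopulated cells and at 9.84 CPM in NC, a ratio of 1.70 (1.29 to 2.27). The other pair of called members, which were named after their values were seen, were OAS3, an enzyme that answers double-stranded RNA (17.4 against 10.6 CPM, NC 13.8 CPM), and SAMD9, an antiviral restriction factor (15.4 against 9.93 CPM, NC 5.25 CPM). IFI27 and SAMD9 reached 10 CPM in weak tag8 cells but not in repopulated cells. Both thus counted as measured only through the population where they were higher. The list was not raised as a block. BST2, which tethers budding virions at the membrane, was at 8.21 against 10.1 CPM, a ratio of 0.81 (0.60 to 1.12), and 23 of the 40 members, among them IFIT1, MX1 and OAS1, did not reach 10 CPM in either population.

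The genes that sense nucleic acid and relay the signal differed less, with a median log2 ratio of 0.11. Even so, 6 of 12 measured had an interval above 1, against 10.6% of all measured genes, and 0 an interval below 1. IFIH1, the double-stranded RNA sensor MDA5, was the 1 called member of 12 measured, at 12.1 CPM in weak tag8 cells, 7.40 CPM in repopulated cells and 7.87 CPM in NC, a ratio of 1.63 (1.16 to 2.37). Since it was under 10 CPM in repopulated cells, it counted as measured only through the weak tag8 cells, where it was higher. TRIM25 and IRF1, an RNA sensing cofactor and an interferon-responsive factor, had ratios of 1.33 and 1.32. Genes of MHC class I presentation, which interferon also raises, showed none of this. None of 12 measured was called, the median log2 ratio was -0.05, and HLA-B was at 209 CPM in weak tag8 cells and 226 CPM in repopulated cells, a ratio of 0.92 (0.87 to 0.98).

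Counted per cell, IFI6 was spread over many cells and ISG15 had a tail. Each cell was thinned to 3000 UMIs, which left out 542 weak tag8 and 19 repopulated cells that were shallower. IFI6 then had at least 1 UMI in 20.3% of weak tag8 cells (19.2 to 21.3%), 7.49% of repopulated cells (5.54 to 9.87%), 5.50% of NC cells and 23.5% of strong tag8 cells. Unthinned, the shares were 37.6% of weak tag8 and 18.2% of repopulated cells. Since all cells are of 1 line, no cell type lacks the gene, and the level in droplets without cells (78.3 CPM for IFI6 and 1714 CPM for ISG15) is the only measure of free RNA. With that profile subtracted at 10% of the UMIs of each population, the ratio of IFI6 was 3.89 and that of ISG15 2.18.

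At least 10 UMIs of ISG15 were found in 72 of 5780 thinned weak tag8 cells (1.246%, 0.976 to 1.57%). They were found in 0 of 614 repopulated cells (interval up to 0.599%), in 0 of 800 NC cells (up to 0.46%) and in 133 of 2187 strong tag8 cells (6.08%). The highest count in a cell was 129 among weak tag8 cells and 6 among repopulated cells. The 1% of weak tag8 cells with most ISG15 held 12% of its UMIs there, against 3.98% in repopulated cells, and the ratio without these cells was 1.5 (1.43 to 1.58), at the limit. The share with at least 1 ISG15 UMI was 73.4% in weak tag8 and 66.9% in repopulated cells (93.0 and 89.7% unthinned).

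Metallothioneins were higher in weak tag8 cells, and here the repopulated cells were the population that stood apart. MT2A was at 5711 CPM in weak tag8 cells and 2792 CPM in repopulated cells, with 5511 CPM in NC and 5751 CPM in strong tag8 cells, a ratio of 2.05 (2.01 to 2.08). MT1E was at 1849 and 880 CPM, with 2038.5 CPM in NC and 1521 CPM in strong tag8 cells, a ratio of 2.10 (2.04 to 2.17). MT1X was at 302 and 132 CPM, with 274 CPM in NC and 288 CPM in strong tag8 cells, a ratio of 2.28 (2.11 to 2.48). In each of the 3 genes, the weak tag8, NC and strong tag8 cells were closer to each other than any of them was to the repopulated cells, which were lowest. These genes are related in sequence, and whether reads were assigned to the wrong member was not tested.

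The other 2 measured members of the list of 12 did not move with them. MTF1, the metal sensor itself, was at 15.8 and 14.8 CPM (ratio 1.07, 0.84 to 1.39), and MT1F was at 10.3 and 11 CPM (ratio 0.94, 0.70 to 1.27). The list thus had 3 of 5 members called higher, and a median log2 ratio of 1.03. Both SLC39A10, a zinc importer of the plasma membrane, and CRIP1, a zinc-binding LIM protein, went the other way. SLC39A10 was at 89.9 CPM in weak tag8 cells, 136 CPM in repopulated cells, 82.8 CPM in NC and 83.3 CPM in strong tag8 cells, a ratio of 0.66 (0.61 to 0.72). CRIP1 was at 96.7, 149, 96.2 and 123 CPM in the same order, a ratio of 0.65 (0.60 to 0.70).

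The lower metallothionein level of the repopulated cells was a shift of the whole population. A thinned cell held a median of 21 UMIs of the list in weak tag8 cells, 11 in repopulated cells, 22 in NC and 20 in strong tag8 cells. The median of the repopulated cells was exceeded by 84.5% of weak tag8 cells and 87.3% of NC cells. At least 20 UMIs were found in 55.9% of weak tag8 cells, 8.63% of repopulated cells and 59.9% of NC cells, and at least 40 in 10.6% of weak tag8 and 0.163% of repopulated cells. In droplets without cells MT2A stood at 5485 CPM, close to weak tag8 cells and above repopulated cells.

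**Figure D2:**
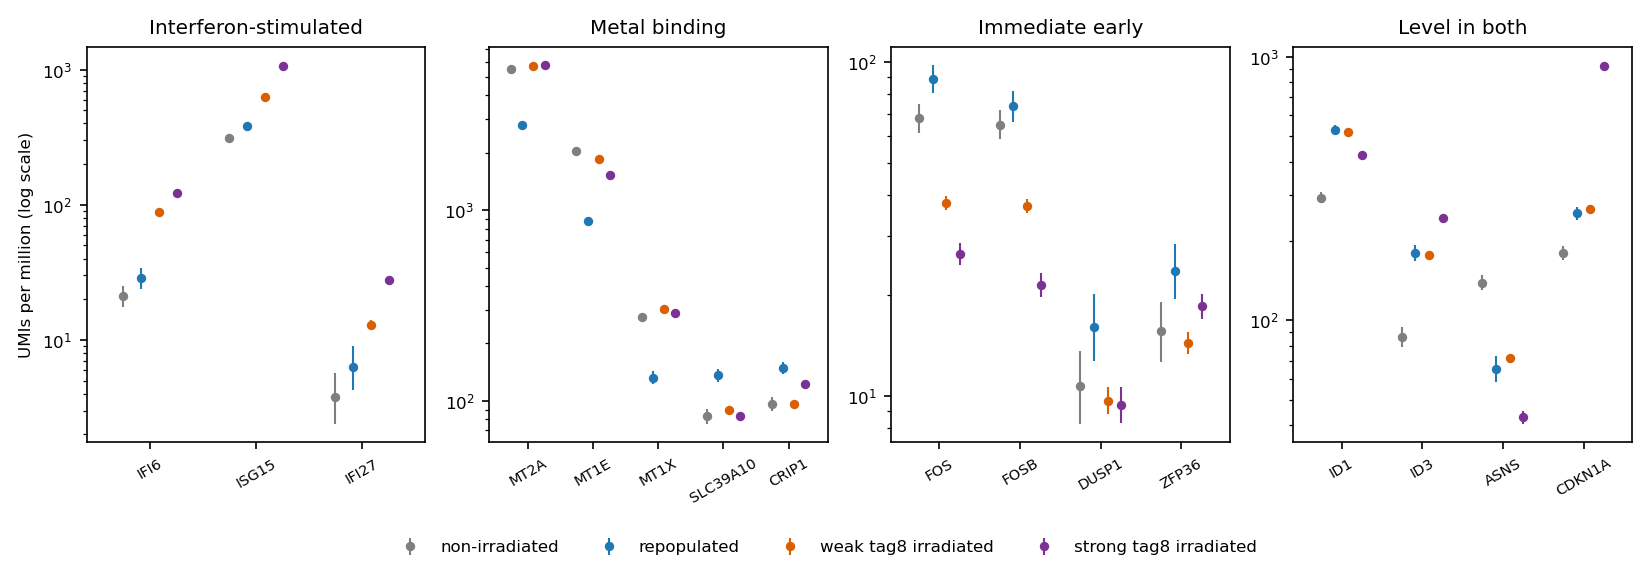
Level in UMIs per 1e6 (log scale, y axis) of 16 named genes (x axis) in non-irradiated, repopulated, weak tag8 and strong tag8 cells, with exact 95% Poisson intervals as bars. IFI6 and ISG15 step up from NC to strong tag8 cells, the repopulated cells alone are low in MT2A, MT1E and MT1X, FOS and FOSB are low in both irradiated populations, and ID1 and ID3 are level in weak tag8 and repopulated cells.

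Genes of the antioxidant factor NRF2 and of ferritin did not reach the limit. None of 18 measured was called, 14 had an interval above 1, which held for 10.6% of all measured genes, and the median log2 ratio was 0.27. GCLM, which limits glutathione synthesis, was at 71.7 CPM in weak tag8 cells, 48.8 CPM in repopulated cells and 76.7 CPM in NC, a ratio of 1.47 (1.28 to 1.68). TXNRD1, thioredoxin reductase, was at 265, 187 and 249.8 CPM, a ratio of 1.41 (1.32 to 1.51). SLC7A11, the cystine importer, was at 14.5, 9.93 and 25.7 CPM, a ratio of 1.46 (1.08 to 2.00). For TXNRD1 and GCLM the NC level was near that of weak tag8 cells, as for the metallothioneins.

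A few immediate early genes, 4 of 22 measured in their list, were lower in weak tag8 cells. FOS, a subunit of the AP-1 transcription factor, was at 37.9 CPM in weak tag8 cells and 89.2 CPM in repopulated cells, with 67.9 CPM in NC and 26.6 CPM in strong tag8 cells, a ratio of 0.42 (0.38 to 0.47). FOSB, another AP-1 subunit, was at 37.1, 73.8, 64.9 and 21.5 CPM in the same order, a ratio of 0.50 (0.45 to 0.57). Both genes were lower in the irradiated populations than in either of the others. DUSP1, a phosphatase that switches off MAP kinases, was at 9.66 against 16.1 CPM (ratio 0.60, 0.47 to 0.78, NC 10.7 CPM), and ZFP36, which speeds the decay of AU-rich transcripts, at 14.3 against 23.7 CPM (ratio 0.61, 0.50 to 0.75, NC 15.6 CPM). For these the NC cells lay with the weak tag8 cells. DUSP1 counted as measured only through the repopulated cells, where it was higher.

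No member of the list of immediate early and heat shock genes was called higher, and the list as a whole had a median log2 ratio of -0.02. Its members went both ways. Of the 22 measured, 9 had an interval above 1, against 10.6% of all measured genes, and 7 an interval below 1, against 8.73%. JUN, JUNB, EGR1 and IER2 had ratios of 0.89, 0.82, 0.90 and 0.95. ATF3, a stress-induced repressor, and FOSL1, a later member of the FOS family, were above 1, at 1.48 (1.17 to 1.90) and 1.41 (1.26 to 1.58). The nuclear receptors NR4A1 and NR4A2, named after their values were seen, were also lower, at 7.0 against 18.6 CPM and 8.34 against 15.0 CPM, with 6.39 and 8.36 CPM in NC. Both likewise counted as measured only through the repopulated cells. At least 1 UMI of FOS, FOSB, DUSP1 or ZFP36 was found in 24.7% of thinned weak tag8 cells (23.6 to 25.8%), 45.9% of repopulated cells (41.9 to 49.96%), 36.0% of NC cells and 20.9% of strong tag8 cells. For FOS alone the shares were 10.4% and 24.3% (22.4 and 44.6% unthinned), and its level in droplets without cells was 13.9 CPM.

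**Figure D3:**
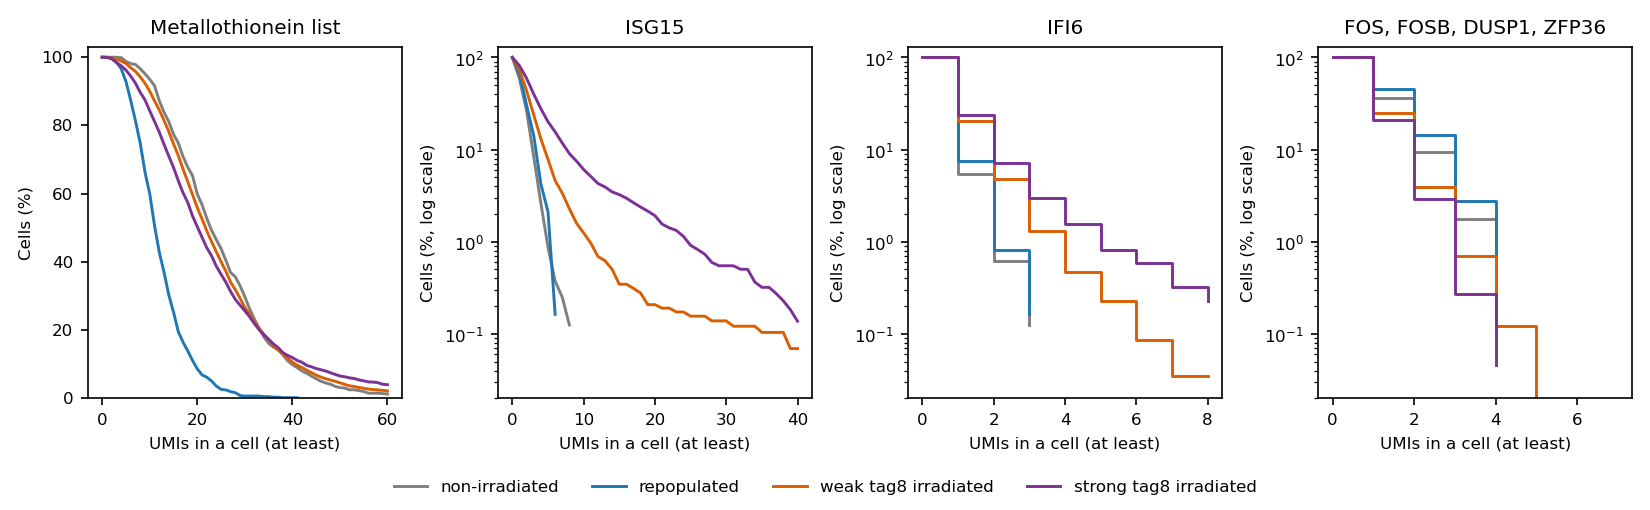
Share of cells in percent (y axis) with at least the number of UMIs on the x axis, after thinning to 3000 UMIs, for the metallothionein list, ISG15, IFI6 and the sum of FOS, FOSB, DUSP1 and ZFP36 (log scale on the y axis except for the first). The repopulated curve is shifted left as a whole for metallothioneins, the ISG15 curve of weak tag8 cells runs on past 10 UMIs where those of repopulated and NC cells have ended, and the last panel has repopulated cells on top.

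A pair of sterol genes was lower in weak tag8 cells. In cholesterol synthesis 2 of 23 measured genes were called lower, 0 were called higher and 9 had intervals below 1, which held for 8.73% of all measured genes, around a median log2 ratio of -0.12. INSIG1, which holds the sterol sensor in the endoplasmic reticulum and is itself a sterol-regulated target, was at 10.0 CPM in weak tag8 cells, 18.6 CPM in repopulated cells and 9.67 CPM in NC, a ratio of 0.54 (0.43 to 0.68). TM7SF2, a sterol reductase, was at 16.2, 25.1 and 13.6 CPM, a ratio of 0.64 (0.53 to 0.79). IDI1, an isoprenoid enzyme, had a ratio of 0.74 (0.65 to 0.85).

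None of 11 genes of epithelial identity was called, 7 had intervals below 1 against the same 8.73% of all genes, and the median log2 ratio was -0.17. The tight junction gene CLDN4 was at 61.7 CPM in weak tag8 cells, 87.3 CPM in repopulated cells and 57.4 CPM in NC, a ratio of 0.71 (0.64 to 0.79) that turned to 1.23 (0.72 to 2.26) below 5% mitochondrial UMIs, and EPCAM had a ratio of 0.85 (0.81 to 0.89). None of 9 S100 genes was called, with a median log2 ratio of -0.25, and S100A6, a calcium-binding protein, was at 5047, 6383 and 5327 CPM. RNF43, a ubiquitin ligase that removes Wnt receptors, was at 30.05, 49.9 and 26.2 CPM, a ratio of 0.60 (0.52 to 0.69). LCN2, an iron-carrier-binding protein of stressed epithelium, was at 21.2 and 39.1 CPM with 9.51 CPM in NC and 88.5 CPM in strong tag8 cells, a ratio of 0.54 (0.46 to 0.64). LCN2 was thus highest in strong tag8 cells and lower in weak tag8 than in repopulated cells.

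**Figure D4:**
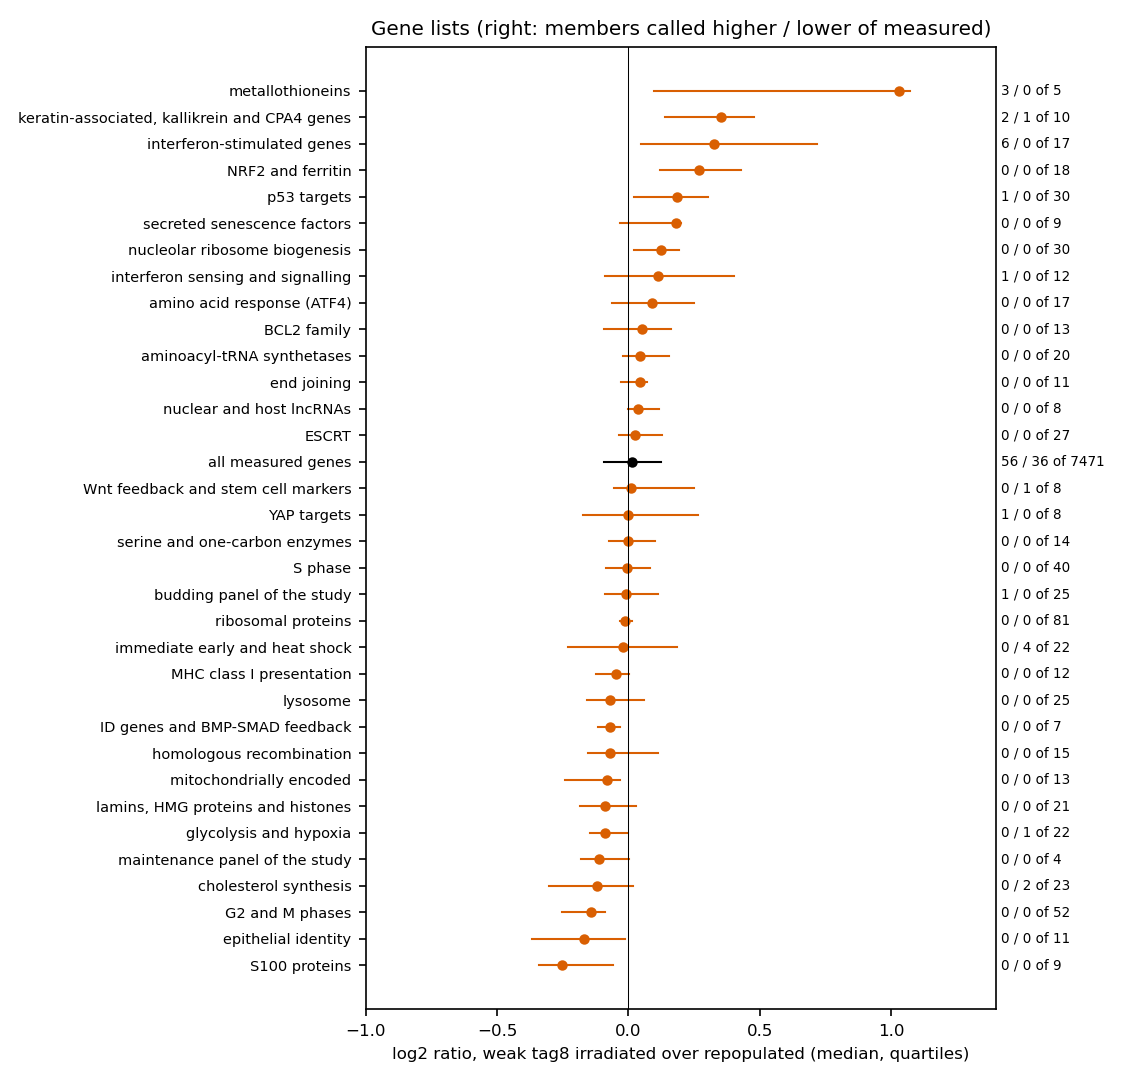
Median (point) and quartiles (line) of the log2 ratio of weak tag8 over repopulated cells (x axis) for the measured members of each gene list (y axis), with the members called higher and lower at the right and all measured genes in black. Metallothioneins stand at 1.03 and interferon-stimulated genes at 0.32, S100 proteins are lowest at -0.25, and most lists lie close to the 0.01 of all genes.

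Other genes among the 10 highest by the naming rule had no list in common. BDNF, a neurotrophin, was at 50.1 CPM in weak tag8 cells, 25.1 CPM in repopulated cells, 28.0 CPM in NC and 55.8 CPM in strong tag8 cells, a ratio of 1.99 (1.66 to 2.42). NR2F1, an orphan nuclear receptor, was at 98.7, 62.6, 126 and 67.1 CPM, a ratio of 1.58 (1.4 to 1.78), and GDA, guanine deaminase, and IGF2BP3, an RNA-binding protein of fetal tissue and tumours, had ratios of 1.57 and 1.56. BDNF was thus high in both irradiated populations, whereas NR2F1 was highest in NC. CPA4, a carboxypeptidase, and KRTAP3-1, a keratin-associated gene, were at 43.6 against 22.0 CPM and 12.7 against 5.49 CPM, with 151 and 92.8 CPM in strong tag8 cells. Droplets without cells held 105 CPM of CPA4 and 129 CPM of KRTAP3-1, more than either of the compared populations, and the part of free RNA in these 2 genes was not tested.

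The genes set as markers of the repopulated line and of the amino acid response did not part the populations. ID1, a BMP-induced inhibitor of differentiation factors, was at 517 CPM in weak tag8 cells and 528 CPM in repopulated cells, a ratio of 0.98 (0.94 to 1.02), while NC stood at 292 CPM and strong tag8 cells at 422 CPM. ID3, its relative, was at 176 and 180 CPM with 86.9 CPM in NC. ASNS, asparagine synthetase and a target of ATF4, was at 72.3 and 65.5 CPM, a ratio of 1.10 (0.98 to 1.24), with 139 CPM in NC. ID1 and ASNS thus set both of these populations apart from NC and not from each other, and none of 17 measured genes of the ATF4 response was called. PHGDH and PSAT1, enzymes of serine synthesis, were at 45.2 against 51.8 CPM and 74.4 against 68.7 CPM, with 78.5 and 126 CPM in NC.

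Of 30 measured p53 targets 1 was called higher and 0 lower, with a median log2 ratio of 0.18. An interval above 1 was found for 10 of them, against 10.6% of all measured genes, and an interval below 1 for 3, against 8.73%. CDKN1A, the p53 target that arrests the cycle, was at 265 CPM in weak tag8 cells and 255 CPM in repopulated cells, a ratio of 1.04 (0.98 to 1.10), with 180 CPM in NC and 918 CPM in strong tag8 cells. Its ratio fell to 0.46 (0.41 to 0.51) at a tag share of at least 95%, which left 44 repopulated cells, and to 0.59 (0.51 to 0.69) below 5% mitochondrial UMIs, which left 31. Over 20 settings it moved in both directions, up to 1.41. GDF15, a p53-induced cytokine, was at 414 and 331 CPM (ratio 1.249, 1.19 to 1.32), and MDM2, the ligase of p53, at 43.5 and 41.6 CPM. The called target was PLK2, a polo-like kinase, at 17.8 against 11.2 CPM, and GADD45A, a stress sensor, and BBC3, which promotes cell death, had ratios of 1.46 (1.27 to 1.69) and 1.396 (1.1 to 1.8). CST3 and SNCG, genes that the study followed in budding cells, had ratios of 1.12 (1.06 to 1.19) and 0.99 (0.90 to 1.09) over all cells. They stood at 289 and 94.7 CPM in weak tag8 cells and at 738 and 164 CPM in strong tag8 cells.

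Both populations were cycling, weak tag8 cells slightly less so. None of 52 measured genes of the G2 and M phases was called. A ratio below 1 was found for 47 of them, against 46.5% of all measured genes, and an interval below 1 for 27, against 8.73%, with a median log2 ratio of -0.14. MKI67, the proliferation marker, was at 288 CPM in weak tag8 cells, 317 CPM in repopulated cells, 334 CPM in NC and 126 CPM in strong tag8 cells. TOP2A and HMGB2, which act on mitotic chromosomes, had ratios of 0.87 (0.82 to 0.91) and 0.82 (0.78 to 0.86). At least 10 UMIs of the list were found in 84.1% of thinned weak tag8 cells (83.2 to 85.1%), 87.6% of repopulated cells (84.8 to 90.1%), 92.1% of NC cells and 37.8% of strong tag8 cells. The method cyclone placed 15.7% of weak tag8 cells (13.9 to 17.6%), 20.7% of repopulated cells (17.3 to 24.3%) and 21.6% of NC cells in G2/M. It placed 70.6, 68.0 and 64.2% of them in G1, so many cells with at least 10 UMIs of the list were not in G2/M by this method. The S phase list was level, with none of 40 called, and so were 15 measured genes of homologous recombination, BRCA1 having a ratio of 0.93 (0.82 to 1.06).

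The differences were therefore examined within the cells that held at least 10 G2 and M UMIs, 4862 weak tag8 and 538 repopulated cells. There IFI6 was at 85.4 against 27.3 CPM (ratio 3.13, 2.60 to 3.81), MT2A at 5678 against 2809 CPM (ratio 2.02, 1.98 to 2.06) and FOS at 39.8 against 89.97 CPM (ratio 0.44, 0.39 to 0.50). These 3 differences were as large as over all cells. ISG15 was at 535 against 368 CPM, and its ratio of 1.45 (1.38 to 1.53) was then under the limit. LCN2 was at 13.6 against 36.4 CPM, a ratio of 0.37 (0.31 to 0.45). Among these cells 48 of 7482 measured genes (0.642%) were called higher and 53 (0.708%) lower, and none of 29 p53 targets was called.

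In the 918 weak tag8 and 76 repopulated cells with fewer G2 and M UMIs, ISG15 was at 1010 against 475 CPM (ratio 2.13, 1.88 to 2.42) and IFI6 at 101 against 38.4 CPM (ratio 2.64, 1.71 to 4.29). Of 31 measured p53 targets 9 were called higher in these cells and 0 lower (median log2 ratio 0.48), while of all 7769 measured genes 3.73% were called higher and 2.00% lower. CDKN1A was at 715 and 800.3 CPM there, against 169 and 185 CPM in the cells with at least 10 G2 and M UMIs. In both populations it was thus higher in the cells with fewer of these UMIs. CPA4 was at 90.1 against 31.1 CPM (ratio 2.90, 1.80 to 5.01), and LCN2, at 54.5 against 60.3 CPM, differed by less than its counting error. CST3 was past the limit in these cells, at 471 against 285 CPM (ratio 1.65, 1.41 to 1.95). Droplets without cells held 857 CPM of CST3, more than both, and the part of free RNA was not tested. In the cells with at least 10 G2 and M UMIs the ratio of CST3 was 0.95 (0.89 to 1.01). SNCG had a ratio of 0.90 (0.72 to 1.13) in the cells with fewer G2 and M UMIs.

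The differences in IFI6, MT2A and FOS held over the whole range of tag strength. Over 5 ranges of tag8 from 500 to 3159 counts, IFI6 ran from 77.3 to 95.4 CPM in weak tag8 cells, and over 4 ranges of tag7 from 23.6 to 33.7 CPM in repopulated cells. MT2A ran from 5061 to 5914 CPM and from 2692 to 2862 CPM, and FOS from 34.6 to 42.7 CPM and from 66.3 to 94.7 CPM. The values of the populations did not overlap for these 3 genes, though the lowest range of tag7 held only 34 cells. CDKN1A ran from 215 to 336 CPM in weak tag8 cells and from 159 to 401 CPM in repopulated cells, highest at the strongest tag in each. Depth rose along the ranges too, from a median of 5119 to 9184 UMIs in weak tag8 cells, and its part was not tested.

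**Figure D5:**
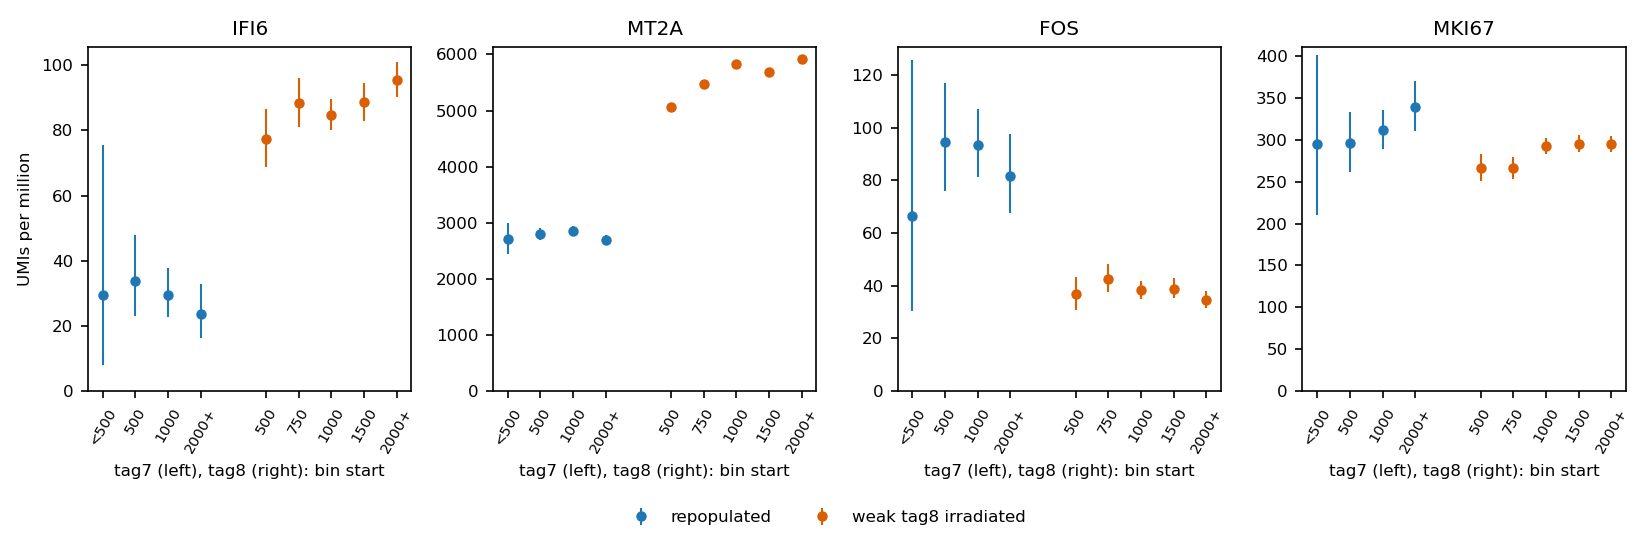
Level in UMIs per 1e6 (y axis) of IFI6, MT2A, FOS and MKI67 by range of tag counts (x axis, lower end of each range; tag7 for repopulated cells in blue, tag8 for weak tag8 cells in orange), with exact 95% Poisson intervals. In every range weak tag8 cells are above repopulated cells for IFI6 and MT2A and have the lower FOS level, while MKI67 stays between 266 and 339 UMIs per 1e6 throughout.

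The limits of the tag window fell within a continuous range. Just inside the lower limit, 138 cells within 50 tag8 counts of it had 79.5 CPM of IFI6 and 5376 CPM of MT2A, and just outside it, 135 cells within 50 counts had 67.7 and 5015 CPM. The 127 cells within 200 counts below the upper limit had 97.1 CPM of IFI6 and 520 CPM of CDKN1A, and the 112 within 200 above it 102 and 459 CPM. A further 1067 cells were pure for tag8 below the window, with a median of 963 UMIs. Only 3 repopulated cells had under 300 tag7 counts and no cell pure for tag7 fell below its minimum.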

How the data were processed

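The deposited values are UMI counts per gene and barcode, which the authors made with Cell Ranger (3.1.0 for Mix1 and 3.0.1 for Mix2, per the file headers) and left without normalization. The submitters' processing notes also name Seurat 2.3 and the builds GRCh38 and mm10, and the matrices held 33538 human genes and, in Mix2, 3 hashtags. The unfiltered counts of Mix2 had 0 differing entries over its 13888 cell barcodes and served only for 49939 droplets without cells (at least 200 and under 500 UMIs). The cell limits (200 genes, 10% mitochondrial UMIs) are those the study states, but the populations are not its sets of cells. After its own removal of poorly labelled cells, the study reported fewer irradiated and non-irradiated cells of Mix2 and more repopulated ones. Droplets with a mix of tags were left out by the 80% limit, no doublet caller was run, and leaving out the 5% of cells with most UMIs was an alternative.

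The UMIs of a population were added up and expressed per 1e6 (CPM). Ratios have exact conditional binomial intervals, levels exact Poisson intervals and shares Clopper-Pearson intervals, all at 95%, made with Python 3.11.15 and scipy 1.17.1. UMIs are independent molecules only as far as the kit's identifiers resolve them, so intervals cover counting error only. On counts simulated for this comparison with counting error alone, the interval held the true ratio for 95.3% of 7446 genes. Of 200 changed genes 195 were called, and 17 unchanged ones were. Coverage near 95% was built into this simulation, which held no spread between cells. How well calls close to the 1.5-fold limit hold was not tested. edgeR 4.0.16 gave TMM factors and scran 1.30.0 the cyclone phases (5000 UMIs per cell, at most 1500 cells per population), both in R 4.3.3.

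The genes named are the 10 with the highest and the 10 with the lowest ratio at 50 CPM or more and an interval that excluded 1, a fixed set of genes, and up to 4 members per list with the largest ratios. The members and the 37 lists were chosen with earlier results of these data known, so no list is independent evidence. Symbols of the lists that did not match the matrices were not analysed here. Alternatives, 23 planned and 2 chosen after seeing the data (5% background subtraction, and leaving out the 1% of cells with most UMIs of a gene), are described in the closing section.
Results for some genes of the lists are not reported here.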

Additional observations from a re-analysis of the deposited data

How the results depend on the processing

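No paired analysis was possible because each population was 1 pool in 1 library. With no replicate, nothing here bears on the spread between cultures. Over 20 settings each, IFI6 ranged from 2.64 to 4.80, MT1X from 2.16 to 2.83, MT1E from 1.84 to 2.41, MT2A from 1.91 to 2.30 and FOS from 0.33 to 0.45, and all of these stayed past the limit. ISG15 ranged from 1.45, in cells with at least 10 G2 and M UMIs, to 2.48. CRIP1, LCN2, BDNF and NR2F1 reached 0.97, 0.93, 1.17 and 1.02 below 5% mitochondrial UMIs (31 repopulated cells), and RNF43 0.94 at a tag share of at least 95% (44 repopulated cells). Of 616 gene ratios under alternatives, 570 stayed on their side of the calling limit, 31 fell under it, 14 passed it and AC108134.2, a called gene, turned to 0.83 with under 10 G2 and M UMIs. In all 17 lay on the other side of 1, 12 of them for genes whose own interval included 1. Besides AC108134.2, the other 4 were CLDN4 (1.23), CKLF (1.02) and IDI1 (1.04) below 5% mitochondrial UMIs and TOP2A (1.26) with under 10 G2 and M UMIs, each with an interval that included 1. The interferon list median ran from 0.10 to 0.63 and that of metallothioneins from 0.93 to 1.27. Those of p53 targets (-0.09 to 0.48), G2 and M genes (-0.52 to 0.30) and epithelial identity (-0.33 to 0.02) changed sign.

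The counts of genes called higher and lower depended on limits and depth. They were 134 and 204 below 5% mitochondrial UMIs (31 repopulated cells), 215 and 197 at a tag share of at least 95% (44 repopulated cells), 95 and 67 with tag8 up to 1000, 89 and 57 with tag7 of at least 1000, 90 and 68 without mitochondrially encoded and ribosomal protein genes, 139 and 119 thinned, 290 and 155 with under 10 G2 and M UMIs, 214 and 229 from 3 counts, 10 and 4 from 50 CPM, 300 and 238 at a fold limit nearer to 1, and 7 and 2 at 2-fold. With equal weight per cell 90 were higher. The cause was not tested where neither fewer cells nor another limit accounts for it by construction. The share of cells with mitotic genes was 94.5% (weak tag8) and 95.3% (repopulated) at 5 UMIs, 44.2 and 51.6% at 20 UMIs, and 29.4 and 32.0% as S and G2/M by cyclone.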

Other observations

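The 72 weak tag8 cells with at least 10 ISG15 UMIs, chosen by that count, are described without a test. They had a median of 6663.5 UMIs and 1789.5 tag8 counts, and a median of 6 G2 and M UMIs in a thinned cell, against 18 in the other 5708. IFIT1, IFIT3 and IFIT2, antiviral genes that lay under 10 CPM in the population as a whole, were at 148, 102 and 69.4 CPM in these cells, against 6.37, 2.86 and 2.34 CPM in the others. IFI6 was at 315 against 88.1 CPM and HLA-B at 379.6 against 205 CPM, while MT2A was at 6134 against 5754 CPM. CDKN1A was at 759 against 236 CPM and MKI67 at 116 against 274 CPM. The 133 strong tag8 cells past the same count had 113 CPM of IFIT1 and 404 CPM of IFI6. IFI6 in the 5708 other weak tag8 cells was still above the 28.2 CPM of repopulated cells.

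Chromosome by chromosome, the median log2 ratio of weak tag8 over repopulated cells lay between -0.01 and 0.03, other than chromosome 20, where 203 measured genes had a median of 0.07. Against NC, that chromosome had a median of -0.08 in repopulated cells and -0.03 in weak tag8 cells. Other genes called, named after their values were seen, were CYP24A1, which breaks down vitamin D (28.9 against 14.8 CPM, NC 10.7 CPM), and SMAD3, a TGF-beta signal transducer (43.1 against 24.7 CPM, NC 31.1 CPM), among the higher, and PKIB, an inhibitor of protein kinase A (24.1 against 40.6 CPM, NC 19.7 CPM), SCNN1A, a subunit of the epithelial sodium channel (22.0 against 34.7 CPM, NC 18.7 CPM), and IDH2, a mitochondrial dehydrogenase (12.8 against 22.6 CPM, NC 15.7 CPM), among the lower.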
